A study of Cynodon dactylon with 10 samples.

Results

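Leaves of bermudagrass seedlings kept on salt were compared directly with leaves of seedlings kept without water. Bermudagrass (Cynodon dactylon) is a perennial warm-season turf and forage grass. All seedlings were wild type (WT) and 3 weeks old at the start, and leaves were taken after 7 days. The salt group received 400 mM NaCl and the drought group had water withheld, with 2 libraries each. The control was left unstressed, another group stood under water (submergence) and another was kept at 42 °C (heat), also with 2 libraries each, 10 in all. The comparison took every assembled contig with at least 1 RPKM in 2 or more of the 10 libraries, which is 26884 of 28456 contigs. RPKM is read density scaled to contig length and to the reads of the library. Of the 1572 contigs left out, 227 were at 0 in every library. Of those kept, 37 passed only because of the salt libraries, and 9 of these are among the calls for salt at 2-fold given below. A further 28 passed only because of the drought libraries, with 6 among the calls for drought.

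Drought and salinity both lower the water potential around the root, so both limit water uptake by the plant. Salt adds the uptake of sodium and chloride, which are toxic to leaf cells when they build up, and grasses such as bermudagrass hold salt back at the root and secrete it through leaf salt glands. Drought is known for stomatal closure, for signalling through abscisic acid, for the build-up of dehydrins and other protective proteins and solutes, and for lower transcript levels of photosynthesis genes in many grasses. The deposited contigs carry assembly identifiers that the files do not pair with gene names. Gene groups of these pathways and leaf marker genes could therefore not be looked up, and the results are given by contig, by level and by group.

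Total RPKM was 767581 and 764535 in the drought libraries and 795078 and 790261 in the salt libraries. Absolute depth is unknown, but the steps between low values put it, relative to control replicate 1, at 0.948 and 0.921 for drought and at 0.988 and 1.02 for salt. On the scale of log2(RPKM + 2), the root mean square distance was 0.179 between the 2 drought libraries and 0.181 between the 2 salt libraries. It was 0.666 to 0.676 between a salt and a drought library, so the groups lay further apart than their replicates. Nothing in the labels says that replicate libraries were made from separate plants, and the p-values measure no more than the spread between them, which may be technical.

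Between salt and drought leaves, 3435 contigs were called with an estimated difference of at least 2-fold, 12.8% of those tested. Of these, 1845 were higher in salt (6.86%) and 1590 were higher in drought (5.91%). Estimated differences of at least 8-fold were seen in 60 contigs higher in salt (0.223%) and 96 higher in drought (0.357%). The calls come from limma at a Benjamini-Hochberg adjusted p under 0.05, on scaled log2(RPKM + 1) values, and fold changes on this scale understate the change of low contigs. The p-value is for a difference from 0, and the size limit applies to the estimate. A call at 2-fold therefore does not by itself place the difference beyond 2-fold. Without the size limit limma called 15298 contigs (56.9%), 7620 higher in salt (28.3%) and 7678 higher in drought (28.6%). For 77.5% of these calls the estimate was under 2-fold. In bulk leaf RNA, fewer cells of a type and less RNA per cell cannot be told apart. Which list was longer depended on the settings: with at least 1 RPKM required in each of the 4 libraries, 1386 contigs were higher in salt and 1452 higher in drought at 2-fold, and with 0.1 RPKM added in place of 1, 291 and 173 were at 8-fold. With 1 contig kept per subcomponent, a set of contigs that share an identifier up to its final part, fewer were tested, and 1094 were higher in salt and 1026 higher in drought at 2-fold.

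**Figure D1:**
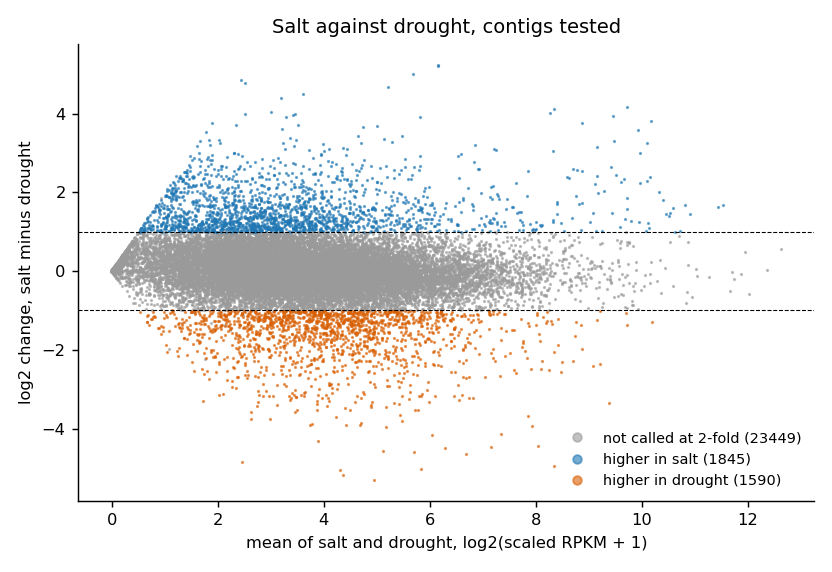
Each point is 1 of the 26884 contigs tested, with the mean log2(scaled RPKM + 1) of salt and drought on the x axis and the log2 change, salt minus drought, on the y axis. Blue points (1845) were higher in salt and orange points (1590) higher in drought at 2-fold or more, and the dashed lines mark 2-fold.

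Most contigs differed by less than 2-fold between salt and drought leaves. The 95% interval of the difference lay within 2-fold in either direction for 20844 contigs, 77.5% of those tested. For 11296 contigs (42.0%) it lay within 0.5 on the log2 scale. Contigs at or near 0 in both groups are counted here by construction, because 1 RPKM is added to each value. With 0.1 RPKM added the 2 counts were 17825 and 8855. At the other end, the interval lay wholly beyond 2-fold for 1179 contigs higher in salt and 1103 higher in drought. For the remaining 3758 contigs the interval reached across the 2-fold line, so these data do not place them on either side. The median half-width of the interval was 0.22 on the log2 scale, over all contigs tested.

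Abundant leaf contigs were more often higher in salt than in drought. Of the 141 contigs whose mean over the 10 libraries reached 500 RPKM, 55 were higher in salt at 2-fold (39.0%) and 8 higher in drought (5.67%), with a median log2 difference of 0.56. The class of 50 to 500 RPKM leaned to the other side, with 215 of 2677 contigs higher in salt (8.03%) and 291 higher in drought (10.9%), and a median difference of -0.11. Among 17337 contigs of 5 to 50 RPKM the 2 sides were nearly equal, at 1136 and 1103. Below 5 RPKM, 439 of 6729 contigs were higher in salt (6.52%) and 188 higher in drought (2.79%). Calls in this lowest class depended on the pseudocount and filter. With 0.1 RPKM added in place of 1 they numbered 941 and 343. With 1 RPKM required in each of the 4 libraries they numbered 187 and 106. The class means include the salt, drought and control libraries, and the control lay closer to salt than to drought. The classes are thus not neutral between the treatments, and how far this sets the counts was not tested.

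**Figure D2:**
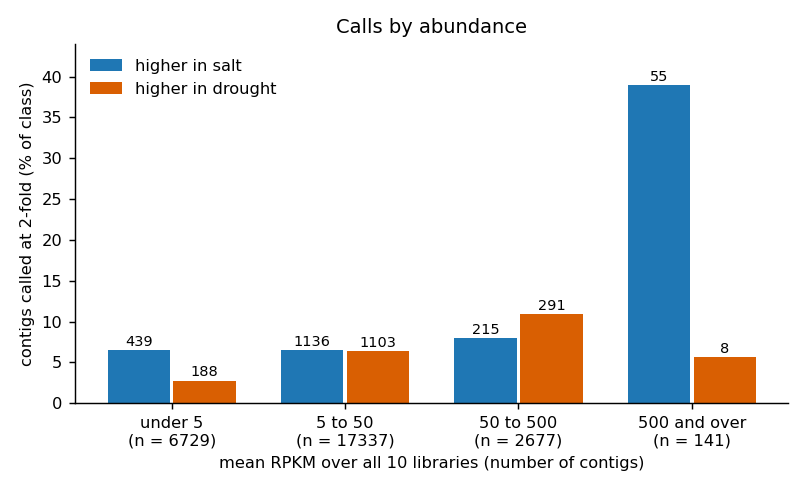
Bars give the share of contigs called at 2-fold in each class of mean RPKM, blue for higher in salt and orange for higher in drought, with the count above each bar. In the class of 500 RPKM and over the salt bar stands at 39.0% and the drought bar at 5.67%.

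A list of abundant contigs that did not use the salt or drought libraries leaned the same way. It did use the control libraries, which lay closer to salt (mean root mean square distance 0.322) than to drought (0.760). The choice of contigs is thus not neutral between salt and drought. The 100 contigs with the highest mean over the control, heat and submergence libraries held 21.7% and 21.55% of all RPKM in the 2 salt libraries. They held 13.99% and 13.7% in the 2 drought libraries, and 22.98% and 23.3% in the 2 control libraries. The salt libraries thus stood well above the drought libraries and a little below the control libraries, with no overlap between these groups. The heat libraries held 16.08% each and the submergence libraries 13.6% and 13.51%. A low share was thus not particular to drought. Over libraries, 2 against 2 cannot give an exact two-sided permutation p below 0.333, so no test is given. Of the 100 contigs, 45 were higher in salt at 2-fold, 5 were higher in drought, and 50 were neither, with a median log2 difference of 0.74. The 45 held 11.7% ± 0.157 of all RPKM under salt and 3.06% ± 0.0636 under drought (SD, n = 2 each). The 5 held 0.158% ± 0.00359 under salt and 0.587% ± 0.0178 under drought (SD, n = 2 each).

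As a share of the whole leaf transcriptome, the 1845 contigs higher in salt held 21.3% and 20.98% of RPKM in the salt libraries, 6.09% and 5.96% in the drought libraries and 23.4% and 23.45% in the control libraries. The 1590 contigs higher in drought held 13.8% and 13.66% in the drought libraries, 3.75% and 3.699% in the salt libraries and 3.145% and 3.12% in the control libraries. For both lists the control share was nearer to the salt share than to the drought share. These shares describe contigs that were chosen on the salt and drought values.

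The level of unstressed leaves lay nearer to salt than to drought for most of the contigs that separated the treatments. On the log2(RPKM + 1) scale the control mean was nearer to the salt mean for 1586 of the 1845 contigs higher in salt (86.0%) and for 1558 of the 1590 higher in drought (98.0%). Over all contigs tested the share was 73.8%. Contigs higher in salt had a median of 12.3 RPKM under salt, 12.6 in the control and 3.69 under drought. Contigs higher in drought had a median of 28.25 RPKM under drought, 6.34 in the control and 8.32 under salt. The plot of levels in the 5 groups shows the same on scaled values.

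Set beside each other, the comparisons of drought and of salt with the control gave different counts for these contigs. They share the control libraries, and the contigs were chosen on the salt and drought libraries, so the counts are a description. Of the 1845 contigs higher in salt, 1414 fell at least 2-fold under drought against the control (76.6%, against 8.03% of all contigs tested). Under salt, 167 of them rose (9.05%, against 1.36%) and 25 fell. Of the 1590 contigs higher in drought, 1372 rose under drought against the control (86.3%, against 7.11%). Under salt, 112 of them rose (7.04%) and 13 fell (0.818%, against 0.32% of all contigs tested).

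**Figure D3:**
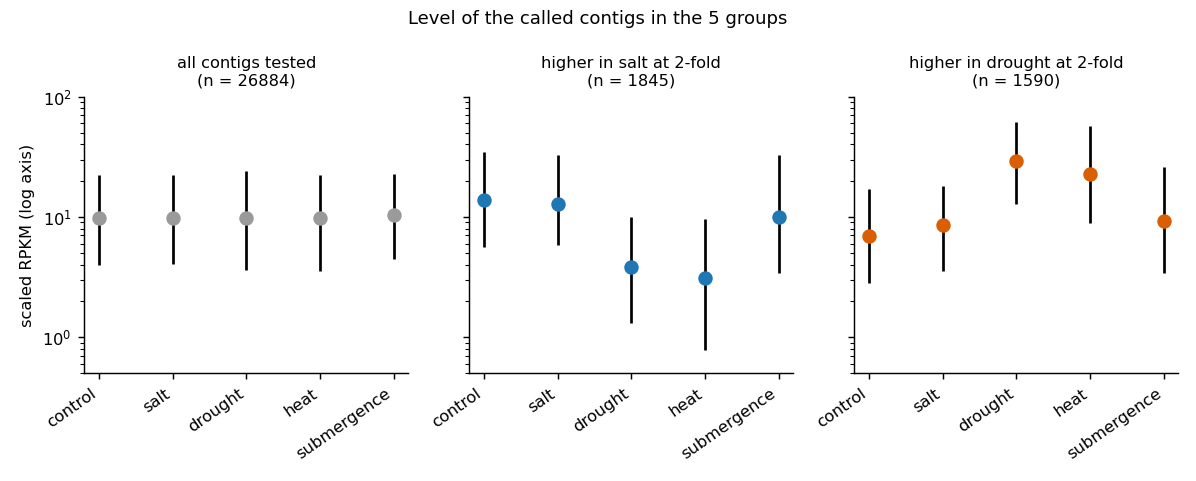
Points are medians and vertical lines the range from the lower to the upper quartile over contigs of the group mean in scaled RPKM, on a log axis, for all 26884 contigs tested, the 1845 higher in salt and the 1590 higher in drought at 2-fold. The salt and control medians lie close together in each panel, and the heat median lies near the drought median in both lists of called contigs.

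The size of the difference went with the level in unstressed leaves. Among contigs higher in salt, the median control level was 11.5 RPKM for 1469 contigs that differed 2- to 4-fold, 16.02 RPKM for 316 that differed 4- to 8-fold, 36.2 RPKM for 48 that differed 8- to 16-fold and 383 RPKM for 12 that differed at least 16-fold. Among contigs higher in drought it was lower in the larger fold classes, at 7.225 RPKM for 1209 contigs, 4.795 RPKM for 285, 2.48 RPKM for 81 and 2.585 RPKM for 15, in the same order. The median drought level of these 4 classes was 24.0, 41.6, 50.7 and 268 RPKM, while their median salt level stayed between 4.38 and 9.255 RPKM. With 1 RPKM added to each value, a large fold needs a high level in 1 of the treatments, so fold class and level are not independent.

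The 12 contigs that were at least 16-fold higher in salt came from 6 assembly components, and 4 of them from 1 component. Their group means ranged from 27.2 to 3466 RPKM under salt, from 0 to 191 RPKM under drought and from 3.755 to 4520 RPKM in the control. Against the control, all 12 fell at 2-fold under heat (15.8% of all contigs tested did). Under submergence 10 fell (83.3%, against 16%) and 2 rose. The 15 contigs at least 16-fold higher in drought came from 12 components. These ranged from 27.6 to 1719 RPKM under drought, from 0.02 to 55.15 RPKM under salt and from 0.29 to 21.5 RPKM in the control. Heat was above the control for 14 of the 15, and submergence for 7. At 2-fold, 12 rose under heat (80%, against 12.2% of all contigs tested) and 1 fell. Under submergence 3 rose (20%, against 16.5%) and 5 fell (33.3%, against 16%).

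Named contigs are the 2 with the largest difference on each side. They were taken from the 10756 contigs that had at least 1 RPKM in each control, salt and drought library and no tested sibling, which is a contig with the same identifier up to its last part. Such contigs higher in salt at 2-fold numbered 508, and those higher in drought 567.

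comp48974_c3_seq1 had 429.95 and 411.59 RPKM in the salt libraries, 10.61 and 9.65 RPKM in the drought libraries and 711.95 and 716.34 RPKM in the control libraries. The log2 difference, salt minus drought, was 5.25 ± 0.15 (SE), and limma's adjusted p was 3.98e-08. Under heat it stood at 1.98 and 2.63 RPKM and under submergence at 1.53 and 2.59 RPKM. Salt leaves lay below the control and above the other 3 treatments, with no overlap between salt and any other group.

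comp48974_c0_seq1, from the same component, had 427.32 and 412.23 RPKM under salt, 10.49 and 10.02 RPKM under drought and 730.09 and 728.37 RPKM in the control. Its log2 difference was 5.23 ± 0.08 (SE), with an adjusted p of 2.35e-09 from limma. Both heat libraries (0.2 and 0 RPKM) and both submergence libraries (0.76 and 0.64 RPKM) were near 0. The 2 named contigs higher in salt thus had nearly the same profile across the 5 groups. They carry 1 component number, so they are not independent examples.

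comp48965_c1_seq1 had 185.87 and 184.25 RPKM under drought, 3.16 and 4.39 RPKM under salt and 14.51 and 16.44 RPKM in the control. Its log2 difference, salt minus drought, was -5.31 ± 0.12 (SE), with an adjusted p of 1.26e-08 from limma. Against the control its log2 change was 3.43 under drought and -1.88 under salt, both past the threshold in limma, so the control lay between the treatments. It also fell under heat, by 1.21 on the log2 scale, and under submergence, by 2.81.

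comp42656_c0_seq2 had 248.81 and 242.73 RPKM under drought, 8.28 and 10.23 RPKM under salt and 1.85 and 1.22 RPKM in the control. Its log2 difference, salt minus drought, was -4.60 ± 0.13 (SE), with an adjusted p of 4.46e-08 from limma. The heat libraries had 5.46 and 5.07 RPKM and the submergence libraries 4.51 and 5 RPKM. Salt lay above the control here, by 1.99 on the log2 scale, and far below drought.

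**Figure D4:**
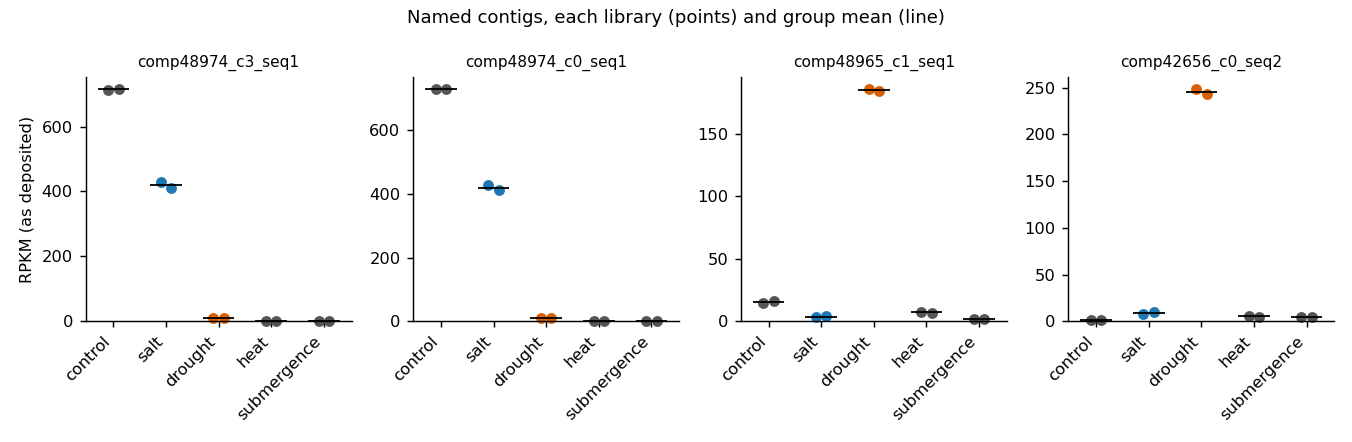
Each panel shows 1 contig in deposited RPKM on a linear axis, with a point per library and a line at the mean of each group. The drought points of comp48965_c1_seq1 (185.87 and 184.25 RPKM) and of comp42656_c0_seq2 (248.81 and 242.73 RPKM) stand apart from the other 4 groups.

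Heat and submergence were each compared with the control in the same fit, and those comparisons share no library with salt against drought. Contigs higher in salt than in drought mostly fell under heat: 1201 of 1845 did so at 2-fold (65.1%), against 15.8% of all contigs tested, and 17 rose (0.921%, against 12.2%). Contigs higher in drought mostly rose under heat, 969 of 1590 (60.9%), while 76 fell (4.78%). The median log2 change under heat was -1.49 for the first list and 1.46 for the second. It followed the fold class, from -1.35 at 2- to 4-fold to -5.77 at 16-fold and over for contigs higher in salt, and from 1.24 to 4.49 for contigs higher in drought. Fold class also went with control level, and with 1 RPKM added a low control level limits a fall. How much of this trend follows from level was not tested.

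Under submergence, as under heat, more of the contigs higher in salt fell than rose and more of those higher in drought rose than fell. Of the contigs higher in salt, 760 fell under submergence at 2-fold (41.2%, against 16% of all tested) and 293 rose (15.9%, against 16.5%), with a median log2 change of -0.61. Of those higher in drought, 530 rose (33.3%) and 303 fell (19.1%), with a median of 0.33. The 15.9% and 19.1% lie near the shares over all contigs tested, so they set neither list apart. The count of 293 depended on the settings: it was 669 with 0.1 RPKM added (24.8%, against 18.4% of all tested) and 101 with 1 RPKM required in each of the 4 libraries (7.29%, against 9.19%). The median over all contigs tested was 0.10. The difference between heat and submergence in these shares was not tested.

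**Figure D5:**
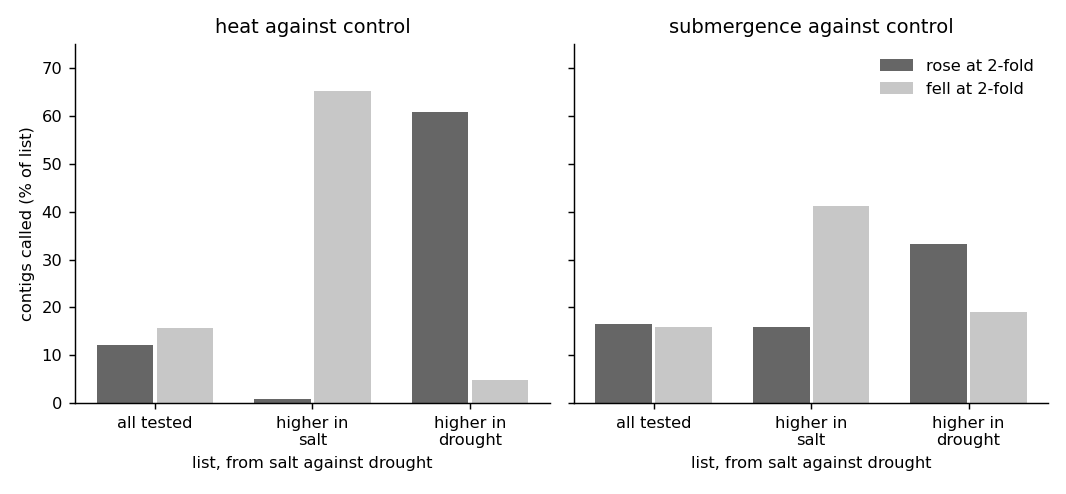
Bars give the share of each list that rose (dark) or fell (light) at 2-fold or more against the control, under heat on the left and under submergence on the right. In the heat panel the light bar reaches 65.1% for contigs higher in salt and the dark bar 60.9% for contigs higher in drought, against 15.8% and 12.2% of all contigs tested.

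Contigs were ranked over the 5 group means of deposited RPKM. Of the contigs higher in salt, 633 were highest under submergence, 582 in the control, 573 under salt and 57 under heat. The choice of contigs leaves 0 highest under drought. Scaling divides the control libraries by 0.915 and 0.908 and the submergence libraries by 1.095 and 1.099. Scaled values would thus move peaks from submergence towards the control, and ranks on them were not taken. Contigs higher in drought peaked under drought in 772 cases, under heat in 588, under submergence in 227 and in the control in 3. Over all contigs tested, 10031 were highest under submergence, 7568 under heat, 3873 under drought, 2774 in the control and 2638 under salt. Submergence was thus the most frequent peak there too, so the 633 do not set the contigs higher in salt apart. The control and salt were the least frequent peaks over all contigs, but came close to submergence among those higher in salt. The choice of those contigs favours salt peaks.

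A smaller part of the contigs higher in salt had a control level nearer to drought, 259 of 1845. Their medians were 5.09 RPKM under salt, 0.445 under drought, 1.015 in the control, 0.275 under heat and 34.7 under submergence. Against the control, 165 of them rose under salt at 2-fold (63.7%, against 1.36% of all tested), which the choice of contigs higher in salt with a control level near drought largely fixes. Under submergence 148 rose (57.1%, against 16.5%). Their profiles were of unlike kinds. In 151 the submergence mean was the highest of the 5, with medians of 82.6 RPKM under submergence, 3.76 under salt and 0.495 in the control. In 102 the salt mean was the highest, with medians of 18.4 RPKM under salt, 6.70 in the control, 5.26 under drought, 5.79 under submergence and 2.51 under heat. Siblings were present for 24.5% of the 151 and for 52.0% of the 102, against 50.3% of all contigs tested. The contrary case, a control level nearer to drought among contigs higher in drought, held for 32 contigs, with medians of 20.6 RPKM under drought, 16.4 in the control and 8.96 under salt.

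A level of at least 5 RPKM in submerged leaves with less than 0.5 RPKM in the control was found for 1204 contigs, and 75 of them were higher in salt (6.23%, against 6.86% of all tested) and 46 higher in drought (3.82%, against 5.91%) at 2-fold. The set was thus not richer in calls than the contigs as a whole, but low levels largely fix this. Its medians were 0.085 RPKM under salt and 0 under drought. With 1 RPKM added, a contig under 1 RPKM in both groups cannot reach 2-fold, so no conclusion is drawn from these shares. The 75 had medians of 71.4 RPKM under submergence, 3.065 under salt and 0.1 under drought. The 46 had medians of 11.7 RPKM under submergence and under heat, 4.295 under drought and 0.535 under salt. What part the high submergence level plays in the difference between salt and drought was not tested. With all 1204 left out, 1771 contigs were higher in salt and 1545 higher in drought at 2-fold.

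Few contigs were close to absent in one treatment and well detected in the other. A group mean under 0.5 RPKM in drought and of at least 5 RPKM in salt was found for 51 contigs, and the reverse for 11. With limits of 0.2 and 2 RPKM the counts were 90 and 11. The 51 had a median of 6.695 RPKM under salt and 0.25 under drought, with 1.43 in the control, 0.07 under heat and 96.6 under submergence. For 33 of them the submergence mean was the highest of the 5 groups, and for 28 it was at least 10 times the salt mean. Over all 26884 contigs tested these counts were 10031 and 2156. The 11 had a median of 7.855 RPKM under drought and 0.34 under salt, with 0.2 in the control, 9.58 under heat and 5.53 under submergence.

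Sibling contigs belong to the same subcomponent of the assembly. Where 2 or more siblings were called, the calls mostly lay on the same side. Of 4876 subcomponents with at least 2 tested contigs, 567 held 2 or more contigs called at 2-fold. All called contigs were higher in salt in 277 of these and higher in drought in 254, and 36 held calls on both sides. In the 36, the called contigs furthest apart differed by a median of 3.24 on the log2 scale. When the RPKM of all siblings was summed, the sum differed by under 2-fold in 28 of the 36, by more towards drought in 6 and towards salt in 2. Reads may be split between siblings, so single values within a subcomponent are uncertain.

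The widest of the 36 had 13 tested contigs, 10 of them called. One of its contigs had 28.45 and 25.58 RPKM under salt and 1.5 and 2.47 RPKM under drought, a log2 difference of 3.26 ± 0.16 (SE). Another had 3.47 and 1.31 RPKM under salt and 23.5 and 32.33 RPKM under drought, a log2 difference of -3.17 ± 0.46 (SE). The salt and drought values of each did not overlap, and limma's adjusted p was 7.61e-07 for the first and 0.000496 for the second. Under heat the first had 0.24 and 0.47 RPKM and the second 156.16 and 149.96 RPKM. In the control they had 19.44 and 22.62 RPKM and 0.35 and 2.6 RPKM, in the same order. Under submergence both were high, at 51.13 and 51.86 RPKM and at 86.23 and 80 RPKM, so they were not opposed in every group. The summed RPKM of the 13 contigs differed by -0.21 on the log2 scale, salt minus drought.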

How the data were processed

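Leaf RNA of 10 libraries was used, 2 per group. Per the labels' protocols, RNA was isolated with the Qiagen RNeasy mini kit and libraries followed Illumina protocols. Tools in the submitters' processing notes are DESeq 1.18.0, HTSeq 0.6.1, TopHat2 2.0.12 and Bowtie2 2.2.3, with no roles stated. The assembly is not given in the sources used here. Per the file headers, the authors deposited RPKM, 1 column per library. RPKM is relative to the reads of each library and to contig length, so a level says nothing of RNA per leaf.

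Scaling used a trimmed mean of log ratios between libraries (0.3 of ratios and 0.05 of levels trimmed at each end) and values were taken to log2(RPKM + 1). A linear model with the group as its only term was fitted to all 10 libraries (5 residual degrees of freedom) in R 4.3.3 with limma 3.58.1, using a variance trend and Benjamini-Hochberg adjustment over 26884 contigs. The code of the fit was tried on simulated data in which far fewer contigs differed than were called here. That trial does not vouch for the calls in these data. Shares and group means use deposited RPKM. Relative depth came from the ratios between libraries at low RPKM, which pile up at small whole-number ratios of reads. Direct and indirect ratios among the 4 salt and drought libraries differed by at most 0.402%. Depth and figures used Python 3.11.15 with matplotlib 3.10.9, pandas 2.3.3 and numpy 2.4.6. For contigs of at least 100 RPKM, log2 values of the 2 replicates differed with a robust SD of 0.0609 under salt and 0.0776 under drought, and no 2 columns of a group were identical.

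The named contigs are the 2 with the largest log2 difference on each side, among contigs called at 2-fold with at least 1 RPKM in each control, salt and drought library and no tested sibling. The contigs, lists and rules were chosen with earlier results of these data known. Gene lists could not be matched. Alternatives covered scaling, pseudocount, filters, libraries in the fit, a replicate block, the variance trend, siblings, the threshold and leaving out each salt or drought library. A filter on the 6 other libraries, summed siblings and scaled values for near-absent contigs were chosen after seeing the data.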

Additional observations from a re-analysis of the deposited data

How the results depend on the processing

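The 4 named contigs kept their direction in all 22 alternatives of the fit. They were chosen as the largest differences in these same data, so the choice largely fixed this outcome. It is no further support for them. Counts of calls at 2-fold over all levels were within 1.5 times of the reported value in the alternatives other than those on siblings. With 1 contig per subcomponent (18232 tested), 2120 were called at 2-fold, 1094 higher in salt and 1026 higher in drought, 30 were higher in salt at 8-fold, and under 5 and from 5 to 50 RPKM the calls were 252 and 637 higher in salt and 105 and 681 higher in drought. Of these lists, 697 fell and 8 rose under heat and 446 fell under submergence among those higher in salt, 642 rose and 45 fell under heat and 333 rose under submergence among those higher in drought, and the control was nearer to salt for 895 and 1009. With siblings summed (18244 tested) the same counts were 2079, 1108 and 971, 29 higher in salt and 63 higher in drought at 8-fold, 238, 614, 94 and 590 by level, 700, 7 and 443 for the first list and 606, 48 and 322 for the second, with 199 falling under submergence, and 910 and 956 for the control. Fewer features were tested in both by construction. Over 20 alternatives, 58.8% to 71.6% of contigs higher in salt fell under heat and 59.6% to 65.9% of those higher in drought rose, and the control was nearer to salt for 79.9% to 92.6% and 96.6% to 98.5%. Under submergence, over 19 alternatives, 34.7% to 48.3% of the first list fell, 7.29% to 24.8% of it rose and 30.6% to 39.3% of the second list rose.

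A pseudocount of 0.1 gave 291 contigs higher in salt and 173 higher in drought at 8-fold, 941 and 343 under 5 RPKM, and 66 and 669 contigs higher in salt that rose under heat and submergence. A pseudocount of 0.5 gave 120 higher in salt at 8-fold and 35 that rose under heat, and no scaling gave 30 of the latter. With 1 RPKM required in each of the 4 libraries, 187 and 106 were called under 5 RPKM, and 11 and 101 contigs higher in salt rose under heat and submergence. A mean of at least 5 RPKM leaves 0 calls under 5 RPKM by construction and gave 23 subcomponents called both ways. Near-absent contigs numbered 90 in drought with limits of 0.2 and 2 RPKM. The 50 most abundant contigs held 15.5% under salt and 9.51% under drought, and the 200 most abundant 28.4% and 19.6%. The causes of the shifts that no construction sets were not tested. Upper-quartile scaling moved the median of all contigs to 0.068 on the log2 scale and the calls of any size to 9071 higher in salt and 6177 higher in drought.

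Without each salt or drought library in turn, when the lone library is assumed to vary like the other groups, 13313 to 13529 contigs were called, and 3444 to 3524 at 2-fold. The replicate block gave 15116 calls and 3435 at 2-fold, and 11959 and 3312 with the salt and drought libraries only, where the fit without the block gave 12908 and 3340. The numbers are not stated to pair libraries. The replicate differences of salt and drought had a correlation of 0.16 over 20155 contigs, which are not independent. This was the highest value over the 10 pairs of groups, and the lowest was -0.046. Read totals are unknown, so no counting limit can be set for low contigs.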
